A study of Mus musculus with 6 samples.

Results

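Mouse chromosome 11 carries many genes that are transcribed but encode no protein, and the 431 of them with reads in this series are described here. They were chosen by annotation and read number from the 48526 genes of the deposited count table by 3 conditions. The gene lies on chromosome 11 in GENCODE M21, its biotype is a long noncoding class (lincRNA, antisense, processed transcript, sense intronic, sense overlapping, bidirectional promoter or TEC, a class of transcripts still to be experimentally checked) or a pseudogene class, and it has at least 15 reads over the 6 libraries. Of 996 noncoding genes of the chromosome in the table, 565 had fewer than 15 reads, 307 of them none. Below the limit 7, 7 and 3 genes had 12, 13 and 14 reads. From it upward 3, 7, 1 and 3 genes had 15, 16, 17 and 18 reads. The members are 224 long noncoding genes and 207 pseudogenes, beside 5787 genes of the same biotypes on the other autosomes.

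The RNA came from neural progenitor cells that had been made from mouse embryonic stem cells of 2 genotypes. Of the 6 libraries, 3 were from a line labelled flox/flox for Dmrta2, the control, and 3 from a line labelled -/-. The 3 libraries of a genotype were labelled as biological replicates of 1 line, so genotype and line cannot be told apart and p-values measure the spread between samples of a line. Both groups were cultured without serum, with the BMP receptor inhibitor LDN193189 (100 nM) and the activin and TGF-beta receptor inhibitor SB431542 (10 µM) to day 4, the Wnt pathway inhibitor XAV939 (1 µM) to day 6 and the Hedgehog pathway inhibitor cyclopamine (1 µM) from day 2 to day 10. Cells were replated on day 5, and RNA was taken on day 8 for stranded poly(A) libraries. The columns of the table carry the letters A to C within each genotype, and library values below follow that order.

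Long noncoding RNAs are transcribed by RNA polymerase II and often start close to a coding gene or lie across it on the other strand, where their levels tend to follow that gene. Processed pseudogenes are copies of spliced messenger RNAs that were reverse transcribed and inserted elsewhere in the genome, so a pseudogene and the coding gene it was copied from usually lie on different chromosomes. Because the copy keeps the sequence of the messenger RNA, short reads of the coding gene can map to it.

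The 300-base promoters of the long noncoding members A230004M16Rik, 2610035D17Rik and Lhx1os are shown because they had the largest rises among members of at least 0.5 CPM for which a promoter was read from RefSeq (GRCm38.p6). They are written 5′ to 3′ on the strand of the gene, from 250 bases before its start to 50 after. Capitals mark CG dinucleotides and TATAAA, the TATA box.
A230004M16Rik, chr11:41710094-41710393, plus strand: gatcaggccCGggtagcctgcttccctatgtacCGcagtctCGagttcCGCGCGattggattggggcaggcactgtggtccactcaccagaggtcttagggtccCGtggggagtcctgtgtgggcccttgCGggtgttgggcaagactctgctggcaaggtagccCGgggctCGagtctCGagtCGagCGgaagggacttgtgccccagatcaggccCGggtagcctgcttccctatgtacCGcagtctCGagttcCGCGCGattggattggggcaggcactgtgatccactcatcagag
2610035D17Rik, chr11:113201789-113202088, minus strand: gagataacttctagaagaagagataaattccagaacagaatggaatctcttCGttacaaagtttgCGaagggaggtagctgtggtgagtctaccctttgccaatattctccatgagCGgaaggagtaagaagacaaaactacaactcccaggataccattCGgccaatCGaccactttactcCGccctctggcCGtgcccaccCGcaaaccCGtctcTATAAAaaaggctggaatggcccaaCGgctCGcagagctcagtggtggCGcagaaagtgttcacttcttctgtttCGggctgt
Lhx1os, chr11:84525410-84525709, plus strand: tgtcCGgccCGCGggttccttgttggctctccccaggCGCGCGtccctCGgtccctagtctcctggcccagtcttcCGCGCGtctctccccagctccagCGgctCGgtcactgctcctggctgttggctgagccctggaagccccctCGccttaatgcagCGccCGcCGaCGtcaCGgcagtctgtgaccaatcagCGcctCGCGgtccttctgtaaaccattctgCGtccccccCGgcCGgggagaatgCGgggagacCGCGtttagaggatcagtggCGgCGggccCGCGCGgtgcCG
These windows held 19, 13 and 33 CG dinucleotides. The median was 12 in the 93 promoters of the 83 members found in the RefSeq table and 7 in all 32817 promoters of that table. A TATAAA was found in the window of 2610035D17Rik and in neither of the other promoters, with a match on either strand in 9.68% of the members' promoters and 13.6% of all. The letters CAGCTG and CAGATG, E-boxes that proneural factors can bind, and ACATTGT, the core of a motif of DM domain factors such as Dmrta2, were in none of the 3 windows on either strand. They occurred in 21.5%, 20.4% and 0% of the members' promoters and in 16.3%, 17.2% and 2.97% of all promoters of this length. GGGCGG, the GC box, occurred in 1 of the 3 windows, that of 2610035D17Rik, in 50.5% of the members' promoters and in 35.6% of all.

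For pseudogenes, a stretch of 80 bases is shown beside the coding transcript it most resembles, with capitals at the bases that differ. That coding gene is called the source below and the pseudogene its copy, although similarity does not show descent. The pairs were chosen to show a source on chromosome 11 and sources on other chromosomes. Each stretch is the first in the coding part of the source that aligned without gaps and held at least 2 differing bases. A count of at least 2 differences was therefore fixed by this choice, and only the full alignment gives the identity. Sequences are from the transcripts of GENCODE M21 on GRCm38.
Gm12183, chr11:48753635-48753714, minus strand: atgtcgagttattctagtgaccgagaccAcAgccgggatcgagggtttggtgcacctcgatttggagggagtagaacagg
Ddx5, on chromosome 11, transcript bases 217 to 296: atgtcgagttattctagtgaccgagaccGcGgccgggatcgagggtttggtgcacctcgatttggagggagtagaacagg
Gm12346, in chr11:77293444-77295898, plus strand: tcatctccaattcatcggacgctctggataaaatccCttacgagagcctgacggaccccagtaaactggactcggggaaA
Hsp90aa1, on chromosome 12, transcript bases 287 to 366: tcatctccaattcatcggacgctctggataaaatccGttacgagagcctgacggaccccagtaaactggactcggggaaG
Mdk-ps1, chr11:102545764-102545843, plus strand: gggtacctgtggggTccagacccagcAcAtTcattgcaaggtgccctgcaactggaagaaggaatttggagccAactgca
Mdk, on chromosome 2, transcript bases 534 to 613: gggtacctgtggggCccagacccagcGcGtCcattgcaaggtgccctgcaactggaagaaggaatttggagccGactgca
Gm12183 and Ddx5 differed at 2 of these bases, Gm12346 and Hsp90aa1 at 2, and Mdk-ps1 and Mdk at 5. Over the full alignment, Gm12183 was 98.5% identical to Ddx5 with a longest exact run of 239 bases. Gm12346 was 99.5% identical to Hsp90aa1 with a run of 530, and Mdk-ps1 was 89.8% identical to Mdk with a run of 51.

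Total counts lay between 24565560 and 39646793 per library, of which 0.777% to 0.886% fell on the members. Levels are given as CPM, counts scaled to a common library size. Within a group, gene levels varied with a common biological coefficient of variation of 0.123. Dmrta2 itself, on chromosome 4, was at 75.1 to 85.2 CPM in flox/flox and 409 to 439 CPM in -/- libraries; the count covers the whole gene and checks nothing about the deleted part. All 12 listed markers of neural progenitors averaged at least 1 CPM, with a summed level of 3700.2 to 4198 CPM in flox/flox and 3369 to 3729 CPM in -/-. Of the 6 neuronal markers 5 rose and 0 fell, with sums of 1112 to 2025 CPM and 2414 to 4050.3 CPM, and of the 6 pluripotency markers 0 rose and 3 fell, with sums of 99.3 to 106 CPM and 60.7 to 84.3 CPM. The part of these in the results below was not tested. In bulk RNA, fewer cells of a type and less RNA per cell cannot be told apart.

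The noncoding genes of chromosome 11 did not move as one body. Long noncoding genes were mostly higher in the -/- libraries, by a median of 1.46-fold, and pseudogenes were centred near 0. Higher and lower mean here past an adjusted p of 0.05 in edgeR's quasi-likelihood test, fitted over all 20549 genes with enough reads, of which 17.9% were higher and 17.4% lower, or 35.3% in either direction. Of the 343 members tested, 107 rose and 24 fell (15 without flox/flox A, 12 without flox/flox B and 12 without -/- B). In 145 members every -/- library lay above every flox/flox library, and in 44 below, where 25.5% and 25.4% of all tested genes did so. Of 4376 tested genes of the same biotypes on other autosomes 450 (10.3%) rose and 518 (11.8%) fell. The set was chosen by the measured shift of chromosome 11 genes between these same libraries, so the counts and medians over members describe the data and test nothing. The median log2 fold change was 0.19 for tested members and -0.03 for the other autosomes, and 65.0% of members lay above 0 against 46.2% there.

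**Figure D1:**
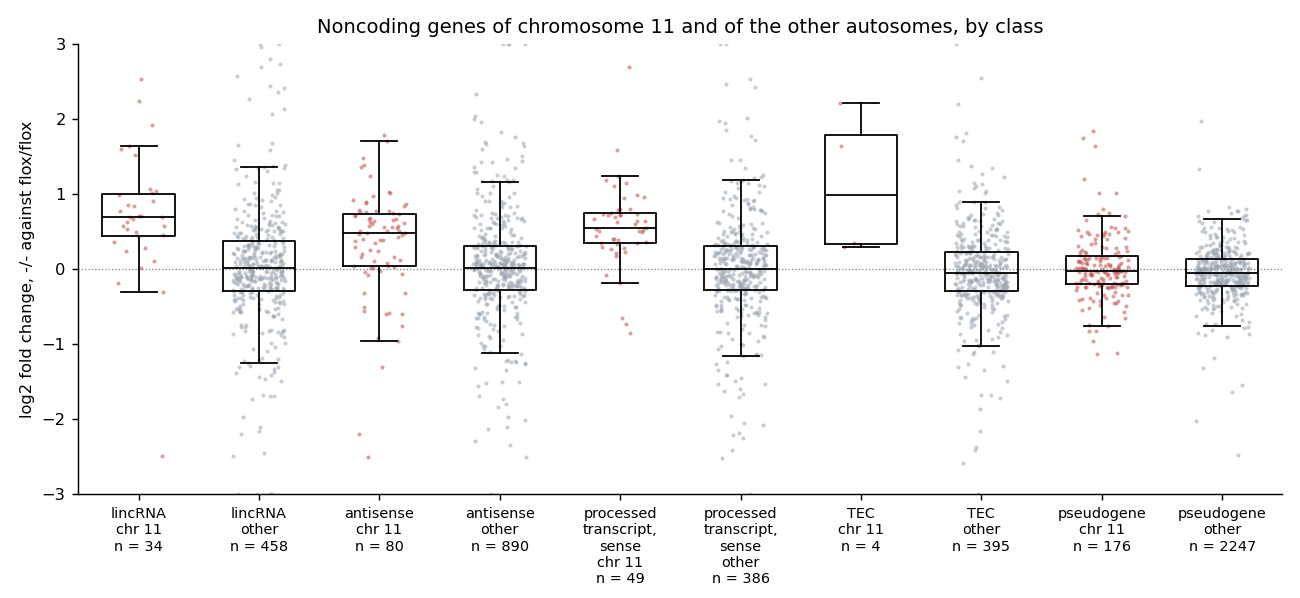
Log2 fold change, -/- against flox/flox, of tested noncoding genes by class, on chromosome 11 (red) and on the other autosomes (grey). Boxes give the median and quartiles with whiskers to 1.5 times their distance; at most 400 points a class are drawn, and values beyond 3 are drawn at the edge. On chromosome 11 the boxes of lincRNA, antisense and processed transcript genes sit above 0, with medians of 0.69, 0.49 and 0.55, and that of the pseudogenes sits on 0.

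Among long noncoding members 167 were tested, of which 86 (51.5%) rose and 6 (3.59%) fell, or 3 without -/- B, and 85.0% had a positive fold change. The median was 0.55 with quartiles of 0.25 and 0.78. On the other autosomes 2129 genes of these biotypes were tested, 248 (11.6%) rose, 251 (11.8%) fell and the median was 0.00. The shift was found in each class. Of 34 lincRNAs, a biotype meant for genes between coding genes although several overlap one, 20 rose and 1 fell, with a median of 0.69. Of 80 antisense genes 36 rose and 4 fell, with a median of 0.49, and of 49 processed transcripts and sense genes 28 rose and 1 fell, with a median of 0.55. Only 4 TEC genes were tested, of which 2 rose. The protein-coding genes of the chromosome had a median of 0.53, with 69.8% of 1172 called higher and 6.06% lower.

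Libraries of one group gave similar medians. Taken against the mean of the flox/flox libraries, the median long noncoding member was at 0.47, 0.54 and 0.57 (log2) for -/- and -0.04, 0.01 and 0.04 for flox/flox. The groups did not overlap. For the pseudogene members the corresponding medians were 0.05, -0.01 and -0.07 for -/- and within 0.01 of 0 in the flox/flox libraries, so the groups did overlap. Long noncoding genes of the other autosomes were at -0.05, 0.02 and 0.05 for -/-. By chromosome, the median of the tested long noncoding genes of the 18 other autosomes lay between -0.15 and 0.09, below the 0.55 of chromosome 11.

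**Figure D2:**
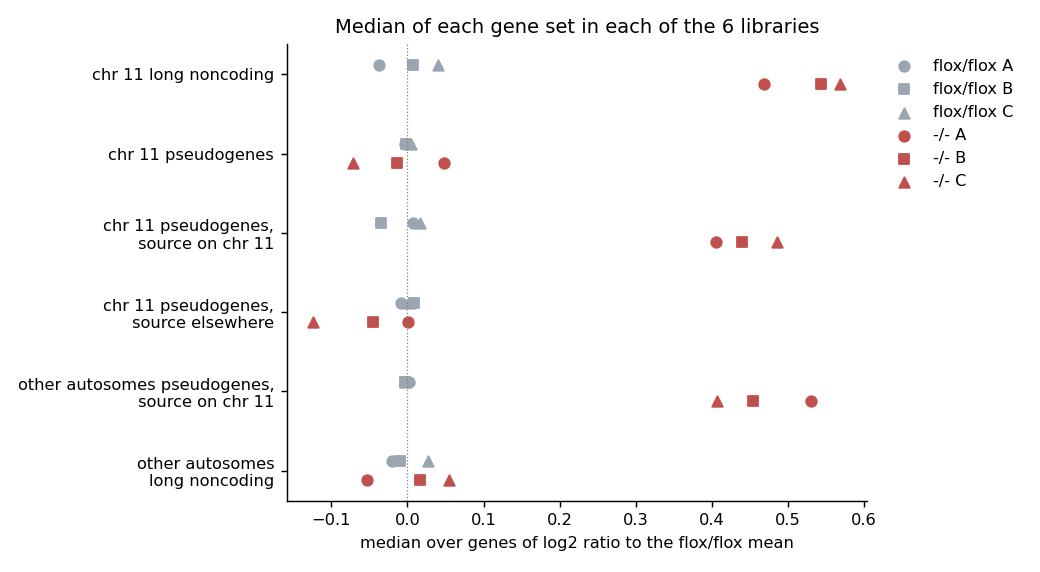
Median over genes of the log2 ratio to the flox/flox mean, for 6 sets of genes in each of the 6 libraries (grey flox/flox, red -/-; the marker shape gives the column letter). The -/- libraries stand at 0.40 to 0.57 for long noncoding members and for pseudogenes with a source gene on chromosome 11, whichever chromosome the pseudogene is on, and within 0.13 of 0 for the other sets.

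The shift of the long noncoding members was spread along the chromosome. In windows of 10 Mb the median of the tested long noncoding genes was above 0 in all 13 windows. It was lowest from 40 to 50 Mb (0.06, 6 genes) and 30 to 40 Mb (0.11, 3 genes) and highest from 10 to 20 Mb (1.19, 4 genes), all windows with few genes. In the other windows it lay between 0.35 and 0.81. It was 0.47 for the 48 tested genes under a mean of 1 CPM, 0.66 for the 53 between 1 and 5 CPM and 0.52 for the 66 at 5 CPM or more. In these bands 12, 25 and 49 genes rose. Reads of an overlapping gene are 1 limit, since nothing used here states the strand setting of the authors' counting, and reads of a gene and its antisense partner cannot then be told apart. Among the 49 tested long noncoding members with no exonic base under an exon of another gene on either strand, the median was 0.69, and 20 rose and 1 fell. Among the 118 with such overlap it was 0.52, and 66 rose and 5 fell.

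The most abundant long noncoding members rose by modest amounts. Tug1 (ENSMUSG00000056579, chr11:3639785-3649673, minus strand), a widely expressed RNA first described in retina, was the highest, at 254, 252 and 242 CPM for flox/flox and 312, 311 and 330 CPM for -/-. Every -/- library was above every flox/flox library, and Tug1 rose by 0.35 ± 0.05 (log2, SE; adjusted p = 0.00245, edgeR). Morc2a, which overlaps it on the other strand and encodes a chromatin ATPase, rose by 0.32. Brip1os (ENSMUSG00000085208, chr11:86201370-86304443) was at 44.9, 47.1 and 47.2 CPM and then 69.1, 74.2 and 67.2 CPM, again without overlap. It rose 1.51-fold (0.60 ± 0.06, adjusted p = 0.000685, edgeR).

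Antisense gene Gm11583 rose 1.49-fold, but all of its exonic bases lie under exons of another gene. It lies across Kpnb1, the importin beta gene, which was at 815 CPM in flox/flox and rose by 0.40. The lincRNAs of highest level were 2310031A07Rik, Gm16755 and Gm27194. The first 2 rose, by 0.45 and 0.63. Gm27194 was at 30.3, 29.3 and 28.6 CPM for flox/flox and 25.3, 24.3 and 28.0 CPM for -/-, or -0.19 ± 0.08 on the log2 scale, and did not pass (adjusted p = 0.0990, edgeR; 0.0413 without -/- C). It overlaps Zfp286, which rose by 1.26. The processed transcripts Gm12592, 2410006H16Rik and Gm11574 rose by 0.51, 0.41 and 0.72, with 23.6%, 0% and 59.3% of their exonic bases under exons of other genes.

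The largest rise was in A230004M16Rik (ENSMUSG00000087306, chr11:41710342-41973117, plus strand), whose promoter is shown above. It measured 0.169, 0.342 and 0.598 CPM for flox/flox and 1.88, 1.67 and 3.59 CPM for -/-. The groups did not overlap, and the gene rose 6.46-fold (2.69 ± 0.47, adjusted p = 0.00463, edgeR). Exons of other genes cover 6.3% of its exonic bases.

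The lincRNA 2610035D17Rik (ENSMUSG00000087259, chr11:113043895-113201838, minus strand) overlaps no other exon. It was at 1.32, 1.37 and 1.51 CPM for flox/flox and 6.02, 7.54 and 10.9 CPM for -/-. The flox/flox values were close together and all -/- values were far above them, a rise of 5.79-fold (2.53 ± 0.25, adjusted p = 0.000588, edgeR). Its nearest coding gene is Slc39a11, a zinc transporter that rose by 0.76. Sox9, a transcription factor of neural progenitors and glia at chr11:112782224-112787760, rose by 1.16 ± 0.16 (adjusted p = 0.00187, edgeR); it was named after its value was seen.

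Lhx1os (ENSMUSG00000087211, chr11:84525660-84535831, plus strand) starts 125 bases from Lhx1, a LIM homeobox gene of early neurons transcribed the other way, and the promoter window printed above holds both starts. Lhx1os was at 1.28, 2.17 and 3.51 CPM for flox/flox and 5.85, 9.13 and 11.3 CPM for -/-. The values varied within each group in the same order of letters but did not overlap, and the gene rose 3.79-fold (1.92 ± 0.37, adjusted p = 0.00686, edgeR). Lhx1 rose by 2.21 ± 0.28, from 31.3 to 145 CPM on average, and ran in the same order, at 23.2, 25.8 and 44.7 and then 113, 136 and 185 CPM.

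A further pair of rises lay in Meis1, a TALE homeobox gene that rose by 1.79 ± 0.07 (adjusted p = 6.23e-05, edgeR). The TEC genes Gm37818 and 2900018N21Rik lie inside Meis1 on its own strand, so their reads cannot be told apart from those of its transcripts. Gm37818 rose 4.65-fold, from 0.353 ± 0.103 to 1.68 ± 0.277 CPM (SD, n = 3; edgeR adjusted p = 0.00117). 2900018N21Rik rose 3.11-fold to 0.580 ± 0.187 CPM (SD, n = 3; edgeR adjusted p = 0.0187), a call lost without flox/flox A (0.0670), flox/flox B (0.0745) or -/- A (0.0559).

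Antisense gene Gm12224 was at 1.11, 1.14 and 1.16 CPM for flox/flox and 3.84, 3.71 and 4.29 CPM for -/-. It rose by 1.79 ± 0.15 (adjusted p = 0.000396, edgeR), beside 1.71 for Acsl6, an acyl-CoA synthetase gene that it overlaps. Gm11423, which lies 66 bases from the DNA ligase gene Lig3, rose by 1.71 ± 0.40 (adjusted p = 0.0149, edgeR; 0.0538 without -/- B), while Lig3 rose by 0.43. Without flox/flox C, where Gm11423 was at 0.876 CPM against 0.372 and 0.228 in flox/flox A and B, its log2 change was 2.39.

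**Figure D3:**
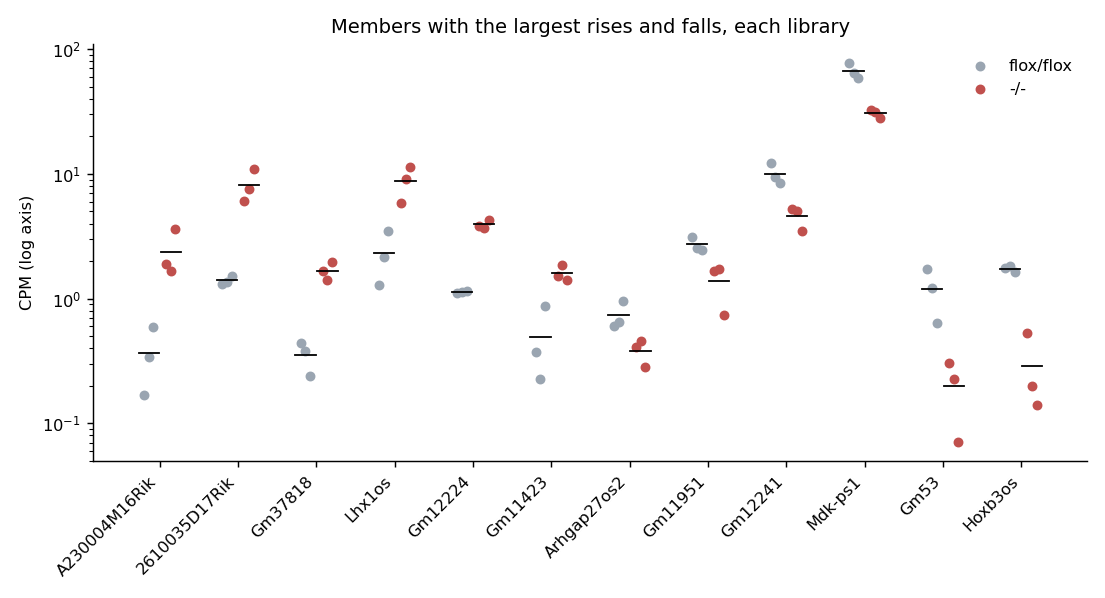
CPM on a log axis of the 6 largest rises and 6 largest falls among members with a mean of at least 0.5 CPM, in each flox/flox (grey) and -/- (red) library; black lines are group means. Groups do not overlap for any of the 12, as the choice required, and 10 of the 12 have a flox/flox mean under 3 CPM.

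The 6 long noncoding members that fell included 2 in the Hoxb cluster, where homeobox genes of the hindbrain and spinal cord lie in a row. Hoxb3os (ENSMUSG00000084844, chr11:96343072-96354691, minus strand) was at 1.76, 1.82 and 1.63 CPM for flox/flox and 0.534, 0.198 and 0.141 CPM for -/-. All -/- values were below all flox/flox values, and it fell 5.64-fold (-2.50 ± 0.40, adjusted p = 0.00299, edgeR; log2 change -3.30 without -/- A). Exons of other genes cover 76.2% of its exonic bases. Gm53 (ENSMUSG00000078706, chr11:96251105-96264868, plus strand) overlaps none, and fell 5.63-fold, from 1.19 ± 0.543 to 0.201 ± 0.119 CPM (SD, n = 3; edgeR adjusted p = 0.00840). Of the 8 Hoxb coding genes tested 7 fell, with log2 changes of -2.59 for Hoxb2, -2.13 for Hoxb3, -1.36 for Hoxb4, -3.54 for Hoxb6, -2.04 for Hoxb7, -1.33 for Hoxb8 and -2.70 for Hoxb9. Over all genes tested 17.4% fell, and over the protein-coding genes of the chromosome 6.06%. Most of these levels were low. Hoxb6 had 12, 9 and 10 reads in the flox/flox libraries and 1 in each -/- library. Hoxb2, Hoxb3, Hoxb4 and Hoxb7 averaged 1.17, 0.852, 1.12 and 0.945 CPM in flox/flox, and Hoxb8 and Hoxb9 2.27 and 5.62 CPM. Hoxb1 at -0.03 ± 0.57 did not pass (adjusted p = 0.973, edgeR), and Hoxb5 and Hoxb13 had too few reads for the test. Those other than Hoxb3 and Hoxb9 were added after their values were seen.

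The other 4 that fell were Mir22hg, Arhgap27os2, and Gm11747 and Gm29477, which were added after their values were seen to complete the count. Gm11747 fell from 1.25, 0.570 and 0.558 CPM to 0.280, 0.142 and 0.0704 CPM (-2.19 ± 0.53, adjusted p = 0.0159, edgeR), beside -2.78 for C1qtnf1, the secreted factor gene it overlaps. Gm29477 fell by 0.56 on the log2 scale (adjusted p = 0.0456, edgeR). Arhgap27os2 fell by 0.92 (adjusted p = 0.0495, edgeR), close to the threshold, and its adjusted p was between 0.0626 and 0.153 when any 1 library was left out and 0.0734 with libraries blocked by letter. Its neighbour Arhgap27os1, antisense to the same gene, averaged 0.513 CPM for flox/flox and 0.569 CPM for -/-, which did not pass.

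Some members are hosts of small RNAs that are cut from the transcript or its introns. Mature microRNAs cannot be read from poly(A) libraries, so the values are those of the host transcripts. The mature strands are shown because 2 hosts moved in opposite directions although they lie in the same 1 Mb of the chromosome. Capitals mark the seed, bases 2 to 8, which pairs with target messenger RNAs (RefSeq, GRCm38.p6).
mmu-miR-22-3p, chr11:75463772-75463793, plus strand: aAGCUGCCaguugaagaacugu
mmu-miR-132-3p, chr11:75173723-75173744, plus strand: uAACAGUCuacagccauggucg
mmu-miR-212-3p, chr11:75173443-75173464, plus strand: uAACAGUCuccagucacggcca
The seed is the same in miR-132-3p and miR-212-3p and differs in miR-22-3p. Mir22hg (ENSMUSG00000085148, chr11:75461539-75466676, plus strand), the host of miR-22, was at 8.45, 8.28 and 7.13 CPM for flox/flox and 4.27, 5.22 and 4.96 CPM for -/-. The groups were well apart, and it fell by 0.73 (1.65-fold, adjusted p = 0.00518, edgeR), the only long noncoding member of at least 5 CPM among those that fell. The host of the neuronal microRNAs miR-132 and miR-212, 1700016P03Rik (chr11:75172560-75177633, plus strand; added), went from 10.4, 9.88 and 10.1 CPM to 16.1, 16.8 and 14.1 CPM. It rose by 0.63 ± 0.10 (adjusted p = 0.00281, edgeR), but 74.3% of its exonic bases lie under exons of other genes. Ovca2, which it overlaps on the other strand, rose by 0.60.

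Of the 6 tested members that hold a gene of a small nucleolar or related guide RNA, which direct the modification of other RNAs, 4 rose and 0 fell. Over all 167 tested long noncoding members 51.5% rose and 3.59% fell, and over all genes tested 17.9% and 17.4%. Snhg20, which holds a small Cajal body RNA gene, was at 10.5, 13.5 and 10.9 CPM for flox/flox and 16.1, 20.8 and 20.3 CPM for -/-, and rose by 0.71 ± 0.14 (adjusted p = 0.00755, edgeR). Besides 2410006H16Rik, the host of Snord49a, Snord49b and Snord65, the added hosts 1810032O08Rik (Snord1a, Snord1b and Snord1c) and AA465934 (Snord7) rose, by 0.44 and 0.51. Snhg15, which holds Snora9, was at 7.73 ± 0.829 and 8.73 ± 0.985 CPM (SD, n = 3), or 0.18 ± 0.13 on the log2 scale, and did not pass (edgeR adjusted p = 0.342). Gm11659, an added antisense gene that holds the small nucleolar RNA gene Gm22743, was at -0.31 on the log2 scale and did not pass (edgeR adjusted p = 0.469).

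Of the 29 tested long noncoding members that have a name other than a clone or Gm number, 14 rose and 3 fell, with a median of 0.60 and a range from -2.50 to 1.92. Over all 167 tested long noncoding members 51.5% rose and 3.59% fell, with a median of 0.55, and over all genes tested 17.9% and 17.4%. Most of the 29 are named as antisense partners of a coding gene. Taco1os, Appbp2os, Lrrc75aos2 and Kdm6bos rose by 0.89, 0.71, 0.88 and 0.49, beside 0.81, 0.54, 0.85 and 0.41 for the genes they overlap. Of these, Taco1 encodes an activator of mitochondrial translation and Kdm6b a histone demethylase. Not all pairs lay so close. Etaa1os, Arhgap27os1 and Map2k3os were at 0.04, 0.17 and 0.75 and did not pass, while Etaa1, Arhgap27 and Map2k3 were at 0.51, -0.91 and 0.17. Ict1os and Dhrs13os rose by 0.97 and 0.39. Med9os, 64 bases from the Mediator subunit gene Med9, rose 2.61-fold (adjusted p = 0.0118, edgeR; 0.0535 without flox/flox B). Rptoros rose 2.02-fold (adjusted p = 0.0329, edgeR), and the call was lost without any single library other than flox/flox A, with values of 0.0546 to 0.102.

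Names without an antisense partner gave further rises. Platr20, named as a pluripotency-associated transcript, rose by 0.84 (1.13 ± 0.126 to 2.03 ± 0.212 CPM, SD, n = 3; edgeR adjusted p = 0.0110) and Eldr, 93 bases from Fbxo48, by 0.74. The 12 that did not pass were mostly at low levels, 8 of them under a mean of 1 CPM, and their log2 differences ran from -0.75 (Notumos) to 1.02 (Sap30bpos). Map2k3os and Notumos passed with libraries blocked by letter (adjusted p = 0.0290 and 0.0480, edgeR), and Map2k3os without -/- C (0.0235). Sap30bpos passed without flox/flox C (0.0174), where its log2 difference was 1.54.

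Fold changes of long noncoding members were compared with those of the coding gene they overlap or, failing that, lie nearest to. Over 164 pairs in which both were tested, Pearson's r of the 2 log2 fold changes was 0.73 and Spearman's rank correlation 0.59, and the median difference, member minus partner, was 0.02. Over 111 pairs that overlap on opposite strands r was 0.80, and over 43 pairs that lie apart it was 0.60 with a rank correlation of 0.24. For the 47 members without exonic overlap r was 0.52 and the rank correlation 0.14, and for the 27 with at least 50% of their exonic bases under other exons r was 0.90. The points share libraries and, where exons overlap, possibly reads, some coding genes serve in several pairs, and genes are not independent replicates.

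**Figure D4:**
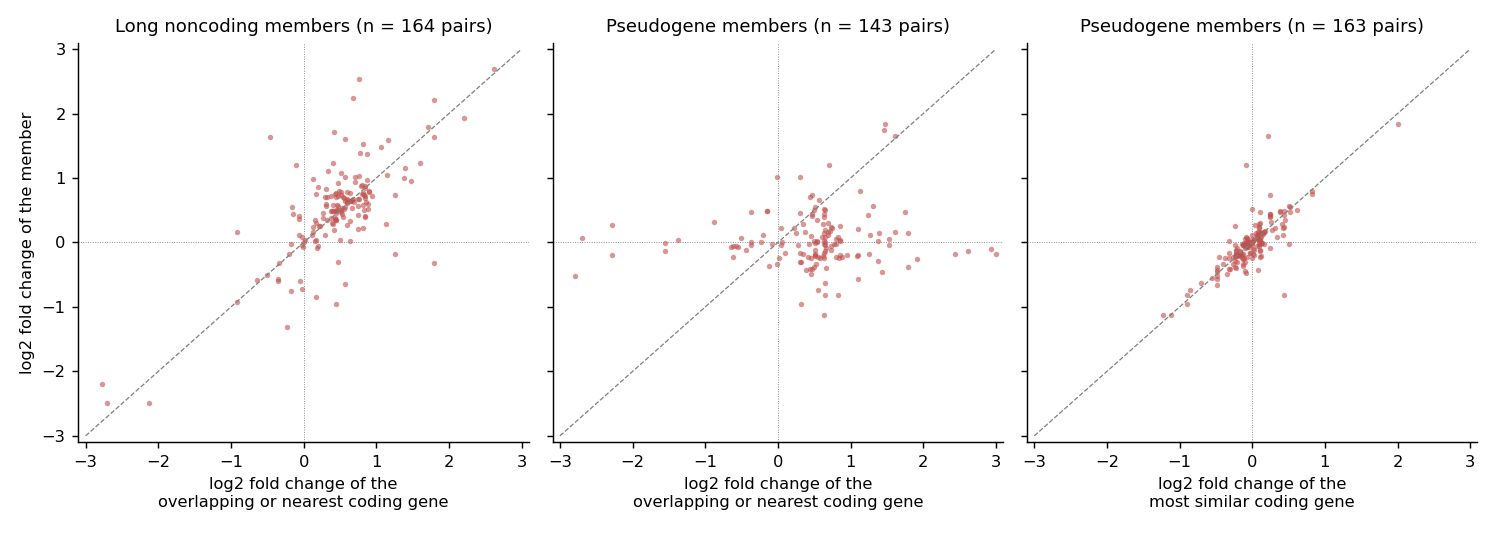
Log2 fold change of members against that of a coding gene, for 164 long noncoding members and their overlapping or nearest coding gene (left), 143 pseudogenes and theirs (middle) and 163 pseudogenes and the coding gene most similar in sequence (right); the dashed line marks equal change and values beyond 3 are drawn at the edge. Points follow the line on the left (r = 0.73) and right (r = 0.80) and lie flat in the middle (r = 0.08).

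Pseudogene members differed from the long noncoding ones in this. Of 176 tested, 21 (11.9%) rose and 18 (10.2%) fell, with a median of -0.02, close to the -0.05 of 2247 pseudogenes on other autosomes, of which 202 rose and 267 fell. The counts of higher genes were 13, 12 and 11 without flox/flox A, flox/flox B and -/- B, and those of lower genes 11, 8 and 9. Their log2 fold changes showed little relation to those of the overlapping or nearest coding gene (r = 0.08 over 143 pairs), although these genes had a median of 0.58. Against the coding gene most similar in sequence, the source, r was 0.80 over 163 pairs, and the median difference was 0.01.

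A source was found for 188 of the 207 pseudogene members by a BLAST alignment over at least 50% of the pseudogene, with a median identity of 95.7% and a median longest exact run of 102 bases. Several genes tied as the best match for 10 members and for 68 pseudogenes of other autosomes, and the first by gene identifier was taken. For only 20 of the 188 members is the source on chromosome 11 itself. Of the 17 tested pseudogenes with such a source 9 rose and 0 fell, and their median was 0.47 (0.33 without flox/flox B). Of the 147 with a source on another chromosome 7 rose and 18 fell, with a median of -0.04. The 7 became 3, 2, 4 and 2 without flox/flox A, flox/flox B, -/- A and -/- B, and the 18 became 11, 8 and 9 without flox/flox A, flox/flox B and -/- B. In the 36 of these with an identity of at least 98% the median was -0.03, and in the 58 under 95% it was -0.06.

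The converse held on the other autosomes. There 201 pseudogenes had a source among 93 genes of chromosome 11, and of the 169 tested 102 (60.4%) rose and 1 fell, with a median of 0.46. The 1957 with a source elsewhere had a median of -0.07, and 84 rose and 252 fell. Among those with a source on chromosome 11 the median was 0.43 for the 67 under 95% identity, 0.43 for the 45 between 95% and 98%, and 0.56 for the 57 at 98% or more. By library, the median of the 169 was 0.53, 0.45 and 0.41 for -/- and within 0.01 of 0 in the flox/flox libraries. Over 168 pairs, r between pseudogene and source was 0.71. Whether the reads came from the pseudogenes or from their sources was not tested, as the treatment of multiply mapped reads is not known here.

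**Figure D5:**
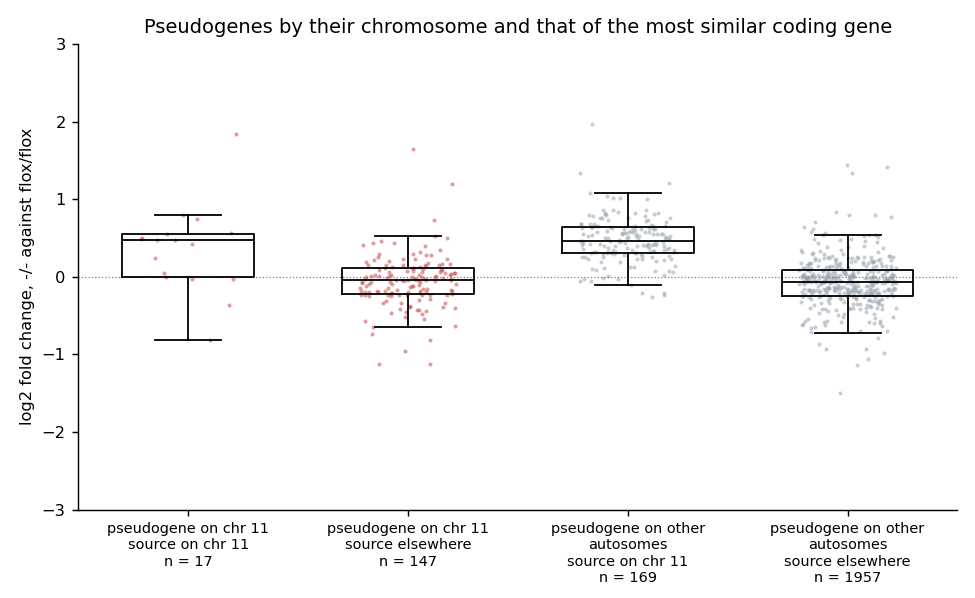
Log2 fold change of tested pseudogenes, split by the chromosome of the pseudogene (red chromosome 11, grey other autosomes) and of its most similar coding gene. Boxes give the median and quartiles with whiskers to 1.5 times their distance, and at most 400 points a group are drawn. Medians are 0.47 and 0.46 where the source is on chromosome 11 and -0.04 and -0.07 where it is elsewhere.

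The pseudogene of highest level was Gm12183 (ENSMUSG00000082454), the Ddx5 copy printed above. It measured 633, 625 and 662 CPM for flox/flox and 847, 858 and 1007 CPM for -/-. All -/- libraries were above all flox/flox libraries, and it rose by 0.50 ± 0.08 (adjusted p = 0.00279, edgeR), beside 0.61 for Ddx5, an RNA helicase gene on the same chromosome. Gm12328 (ENSMUSG00000081552, chr11:73771924-73772120), a copy of the ubiquitin gene Ubb of chromosome 11, was at 615, 596 and 660 CPM and then 837, 845 and 908 CPM. It rose by 0.47 ± 0.06, beside 0.51 for Ubb. Gm11478, a copy of the ribosomal protein gene Rpl13a of chromosome 7, was at 538 ± 19.3 and 631 ± 25.9 CPM (SD, n = 3) and rose by 0.23 (edgeR adjusted p = 0.0170), while Rpl13a at 0.10 did not pass. That call was lost without flox/flox A (0.0556), flox/flox B (0.0766) or -/- B (0.0526).

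Per kilobase of exon, Gm12183 stood at 418 CPM and Ddx5 at 145 CPM over all 6 libraries, and Gm12328 at 3773 CPM and Ubb at 20.2 CPM. Of the 164 tested pseudogene members with a source, 69 (42.1%) had a higher mean level per kilobase than the source. Others with a source on chromosome 11, added to describe the 9 that rose, were Gm10039 and Gm12337, copies of the ATP synthase gene Atp5g1, which rose by 0.80 and 0.75 beside 0.82 for Atp5g1. Gm11518, also added, rose by 0.56 and Rpl27, with which it is identical over 411 bases, by 0.51. The 8 of the 17 that did not pass included 2 added copies of Sumo2, Gm12335 at 22.2 ± 0.309 and 22.9 ± 1.36 CPM (SD, n = 3) and Gm11971. Sumo2 itself differed by 0.10 and did not pass (edgeR adjusted p = 0.318).

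All 18 pseudogenes that fell have their source on another chromosome, as do 147 of all 176 tested pseudogene members. Mdk-ps1 (ENSMUSG00000081677, chr11:102545702-102546022, plus strand) was at 77.4, 64.2 and 58.8 CPM for flox/flox and 32.7, 31.1 and 28.0 CPM for -/-. It fell by 1.12 ± 0.11 (adjusted p = 0.000625, edgeR). Mdk on chromosome 2, which encodes the growth factor midkine, also fell by 1.12, whereas Gpatch8, across which the pseudogene lies on chromosome 11, rose by 0.63. Gm12241 fell 2.17-fold, from 10.0 ± 1.92 to 4.59 ± 0.964 CPM (SD, n = 3; edgeR adjusted p = 0.00505). Its source Zic5, a zinc finger gene of the neural tube on chromosome 14, fell 2.34-fold.

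Gm11951 fell 1.94-fold (adjusted p = 0.0430, edgeR), as its source Ifitm2 on chromosome 7 did (1.87-fold). Its call was lost without any single library other than -/- C, with adjusted p of 0.0575 to 0.118. The added Gm12346, the Hsp90aa1 copy printed above, lies in Ssh2, which rose by 0.86. It was at 579, 626 and 571 CPM for flox/flox and 544, 505 and 497 CPM for -/-, and fell by 0.20 (adjusted p = 0.0417, edgeR) as Hsp90aa1 did. This call is near the threshold and was not checked with libraries left out. The added copies Hmgb1-ps3, Hmgb1-ps1 and Gm12261 fell by 0.57, 0.39 and 0.65, beside 0.48 for Hmgb1, a chromatin protein gene on chromosome 5.

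Of the 12 tested pseudogenes without a match, 5 rose and 0 fell, with a median of 0.53. The 5 became 3, 2, 3, 1 and 3 without flox/flox A, flox/flox B, -/- A, -/- B and -/- C. They include the added genes Ube2d-ps, which rose by 0.71 ± 0.10 (adjusted p = 0.00162, edgeR), and Cdk3-ps, a polymorphic pseudogene that rose by 1.02. A pseudogene that departed from its source was Pisd-ps1 (a transcribed unprocessed pseudogene at chr11:3125904-3131004, plus strand; added). It was at 13.9, 14.4 and 13.5 CPM for flox/flox and 34.3, 47.6 and 49.2 CPM for -/-, and rose by 1.65 ± 0.14 (adjusted p = 0.000440, edgeR). Pisd, a phospholipid synthesis gene on chromosome 5, rose by 0.22, and the nearest coding gene of Pisd-ps1, Sfi1, by 1.61.

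On the other autosomes, Eif4a-ps4 on chromosome 1 was at 826, 854 and 882 CPM for flox/flox and 1303, 1252 and 1184 CPM for -/-. It rose by 0.55 ± 0.06 (adjusted p = 0.000735, edgeR), beside 0.60 for Eif4a1 of chromosome 11, a helicase gene of translation initiation. Rpl19-ps11 on chromosome 8 rose by 0.70 and Rpl19 of chromosome 11 by 0.69. The pseudogene of highest level with a source on chromosome 11, Gm12715 on chromosome 4, was at 1590 ± 64.4 and 1533 ± 65.7 CPM (SD, n = 3) and did not pass (-0.05 ± 0.06, edgeR adjusted p = 0.527). Its source Actg1, the gamma actin gene, was at -0.11 and did not pass either. These 3 pseudogenes were added after their values were seen.

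The 88 members that were not tested, 57 long noncoding genes and 31 pseudogenes, had 15 to 63 reads each over the 6 libraries. Summed over the 57, the level was 8.43 ± 1.30 CPM in flox/flox and 10.3 ± 0.391 CPM in -/- (SD, n = 3). Summed over the 31 it was 5.43 ± 0.504 and 6.47 ± 0.180 CPM (SD, n = 3). At this depth a change in any one of them was not tested.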

How the data were processed

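RNA of 6 libraries, 3 a genotype, was analysed from 1 table. The authors deposited a whole-number read count for each Ensembl gene, made with BWA 0.5.9 and featureCounts 1.4.6 on mm10 (GRCm38), per the submitters' processing notes. No source used here gives the annotation release, strand setting or treatment of multiply mapped reads. The deposited counts are named markdup, and whether reads marked as duplicates were counted is not stated. BWA does not split reads over introns. Columns carry a genotype and a letter, so they were assigned to groups, and the number of sample columns left out was 0. Libraries of a group differed by more than sampling noise (chi-square per gene of 5.47 to 29.8).

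Symbols, biotypes and positions came from GENCODE M21 (48058 of 48526 identifiers; those without one held 0.196% to 0.226% of a library's counts). Counts were tested in R 4.3.3 with edgeR 4.0.16 (filterByExpr with minimum count 10 and total 15, TMM, glmQLFit and glmQLFTest, two-sided, group only), with Benjamini-Hochberg adjustment over 20549 genes at 0.05. Levels are TMM-normalised CPM. SE is the size of the log2 fold change divided by the square root of its quasi-likelihood F statistic. Library medians used log2(CPM + 0.1). Source genes were the best hits of megablast (BLAST 2.17.0, E-value 1e-20, at least 50% of the pseudogene) among coding transcripts. The fit was tested on simulated data.

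Same-letter libraries of the 2 groups deviated together (r = 0.27, 0.10 and 0.26 for A, B and C over 20549 genes). Between libraries of different letters r lay between -0.30 and 0.03. The labels do not say what a letter stands for. The main test therefore used group only, and a block by letter is an alternative. Other alternatives were DESeq2 1.42.0 and limma-voom (limma 3.58.1), scalings, filters, member sets, a threshold of 0.01, an offset and each library left out.

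Members, lists and rules were chosen with earlier results of these data known. Named genes are the 3 members of highest mean level in each of 5 classes, the 6 largest rises and 6 largest falls among called members with at least 0.5 CPM and groups that do not overlap, every tested long noncoding member with a symbol other than a clone or Gm name, and their overlapping or nearest coding genes. Genes called added fall outside this rule and were chosen after their values were seen.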

Additional observations from a re-analysis of the deposited data

How the results depend on the processing

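With a threshold of 0.01, 65 members rose and 10 fell (107 and 24 at 0.05), of which 57 and 3 were long noncoding and 8 and 7 pseudogenes; among pseudogenes with a source elsewhere 1 rose and 7 fell, and 1 without a match rose. With the median of the chromosome's coding genes (0.53) taken out as an offset, 17 members rose and 132 fell. Of these, 15 and 26 were long noncoding and 2 and 106 pseudogenes. In that fit 14.2% of all genes tested rose and 18.3% fell. Members without exonic overlap gave 39 rises and a median of 0.055, and 0.089 as the difference to the other autosomes, where pseudogenes are most of the set. Long noncoding genes alone gave 6 falls, medians of 0.55 and 0.0014 and a difference of 0.55, and pseudogenes alone 21 rises, medians of -0.023 and -0.048 and a difference of 0.024. With TMM from genes outside chromosome 11 the medians were 0.22 and -0.0041. With no filter they were 0.22 and -0.012, and 11 pseudogenes fell, all with a source elsewhere. With a filter of 1 CPM in 3 libraries the median was 0.17, the difference 0.20, 3 long noncoding genes fell and 3 pseudogenes without a match rose. Members averaging 1 CPM or more gave 0.16 and 0.19.

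Leaving out each library in turn gave 75 to 103 rises and 12 to 21 falls over all members, and 3 to 7 falls of long noncoding genes. For pseudogenes it gave 11 to 19 rises and 8 to 16 falls, with a source elsewhere 2 to 7 rises and 8 to 16 falls, and without a match 1 to 4 rises. The median was 0.17 to 0.22 for members, 0.20 to 0.24 as the difference, 0.53 to 0.62 for long noncoding genes and 0.33 to 0.50 for pseudogenes with a source on chromosome 11. The cause was not tested. Of 36 named genes that were called, 27 kept call and direction under every alternative run for single genes, or 29 leaving aside the threshold of 0.01. Signs changed for 3 named genes, none of them called. With libraries left out in turn B9d1os (0.20) ranged from -0.022 (without flox/flox A) to 0.34, Etaa1os (0.04) from -0.14 to 0.32, with -0.03 and -0.05 without flox/flox A and -/- A, and Myadml2os (-0.02) from -0.31 to 0.15, above 0 without flox/flox A, flox/flox C, -/- B or -/- C; with TMM from other chromosomes Myadml2os was at 0.0032. With the column letter as a replicate block 97 long noncoding genes rose and 7 fell, and 22 pseudogenes rose and 21 fell. In that fit 21.2% of all genes tested rose and 20.3% fell. Its calls of named genes changed for Arhgap27os2, Map2k3os and Notumos. Depth limits members under 1 CPM.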
